A study of Homo sapiens with 6 samples.

Results

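The histone genes of Du145 cells are described here: 70 of the 18417 genes tested, found by gene symbol alone. A gene was taken if its symbol begins with H1-, H2AC, H2BC, H3C, H4C, H2AZ, H2AX, H2AJ, H3-3 or MACROH2A and if the array carries a probe set annotated to that symbol and no other. The symbol rule uses no measured value, but this set of genes was chosen with earlier results of these data known. Of the 70, 57 are replication-dependent histone genes: 6 of the H1 family, 14 of H2A, 16 of H2B, 8 of H3 and 13 of H4. A further 10, H2AX among them, are variants that were classed by symbol as replication-independent. Of the rest, 2 are pseudogenes (H1-9P and H2BC19P), and 1, H1-10-AS1, is an antisense RNA that bears a histone symbol but is no histone gene.

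The core histones H2A, H2B, H3 and H4 form the octamer around which DNA is wound, and the linker histone H1 binds where the DNA enters and leaves it. Replication-dependent histone genes lie in clusters, are switched on in S phase when new DNA must be packed, and give mRNAs that end in a stem-loop bound by SLBP in place of a poly(A) tail. Variant histones are encoded by separate genes, mostly with ordinary polyadenylated mRNAs, and are put into chromatin throughout the cell cycle.

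Du145 is a human prostate carcinoma line, and all 6 arrays hold total RNA from cells kept at 1% oxygen in high-glucose medium, with 24 h of hypoxia before collection. The 3 groups have 2 arrays each: shTSC2-adapted, cells that the labels describe as adapted from the knockdown; shTSC2, cells infected with a lentivirus to lower TSC2, a subunit of the complex that restrains the growth kinase mTORC1; and control. Values are log2 intensities of probe sets on a whole-transcript array, and a change is the mean of 1 group minus that of another, given with its standard error (SE, 2 arrays per group). Adjusted p-values are from limma, two-sided, with Benjamini-Hochberg adjustment over 18417 genes and a threshold of 0.05. It is not stated in the labels how the cells adapted, if control cells were infected too, or whether the arrays of a group came from separate cultures. P-values therefore rest on array-to-array spread alone, possibly a technical one, and effects of the virus or hairpin cannot be told apart from those of lower TSC2.

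TSC2 stood at 6.54 and 6.48 on shTSC2-adapted, 6.67 and 6.55 on shTSC2, and 7.52 and 7.59 on control arrays. It was thus low on all 4 knockdown arrays. The median intensities of the arrays lay between 58.1 and 63.1. Of 6 epithelial markers, EPCAM (-1.29) and KRT19 (-1.38) fell and KRT7 (0.44) rose in shTSC2, and the list's summed intensity was 7709.3 to 7762.1 on shTSC2-adapted, 7340.2 to 7689.1 on shTSC2 and 6453.6 to 6847.7 on control arrays. KLK2 and KLK3, prostate luminal genes, lay below the median level of all genes in every group mean, from 5.11 to 5.49 in shTSC2 and 5.15 to 5.22 in control. Of 7 genes listed as markers of an embryonic kidney line used to package virus, NEFM (0.99) and PAX2 (0.49) rose in shTSC2. The list sums were 468.3 to 730.2 on shTSC2-adapted, 490.1 to 582.3 on shTSC2 and 390.3 to 406.6 on control arrays. Of 5 lymphoid and myeloid genes, CD68 (0.62) rose, with sums of 347.2 to 376.1, 446.1 to 455.4 and 317.7 to 327.3 in the same order of groups. Of 6 fibroblast genes 0 passed in limma (1 rose at an unadjusted p below 0.05), with sums of 317.6 to 333.7, 322.8 to 325.2 and 287.2 to 303.7. RMA values hold no 0, so no marker is listed at 0. The marker calls in shTSC2 stand beside 13.9% of all genes that fell and 6.87% that rose. The part of these lists in the results was not tested.

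Of the 57 replication-dependent histone genes, 32 fell in shTSC2 relative to control cells, 25 did not pass and 0 rose in limma (35 lower and 1 higher at an unadjusted p below 0.05), with a median change of -0.77. Those that fell were 5 of 6 H1, 9 of 14 H2A, 9 of 16 H2B, 2 of 8 H3 and 7 of 13 H4 genes. Over all genes 13.9% fell and 6.87% rose in limma (3601 and 2528 of 18417 at an unadjusted p below 0.05), and the median change was 0.03. Among the 32, 24 fell at least 2-fold and 10 at least 4-fold, against 596 and 30 of all 18417 genes. H4C14 and H4C15 gave identical values on every array. Counted once, they leave 31 of 56. Of 49 genes on chromosome 6, 28 fell, and of 7 on chromosome 1, 4 fell. H4C16 on chromosome 12 did not pass (-0.15). The arrays of shTSC2 lay below both control arrays for 37 of the 57 genes and above both for 2, against 29.6% of all genes below and 32.4% above. In bulk RNA, fewer cells in S phase and less histone RNA per cell cannot be told apart.

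The families differed in how many members passed, and this difference was not tested. In H1, 5 of 6 fell (median change -1.22), in H2A 9 of 14 (-1.15), in H2B 9 of 16 (-0.80), in H4 7 of 13 (-0.76) and in H3 2 of 8 (-0.34). Of the 10 variants, 1 fell and 2 rose, with a median change of -0.16. These few genes are shares of 10.0% and 20.0%, against 13.9% and 6.87% of all genes. Together with the pseudogene H2BC19P and the antisense RNA H1-10-AS1, the 70 genes held 33 that fell, 4 that rose and 33 that did not pass. Of the 70, 47.14% thus fell and 5.71% rose, the latter near the share of all genes. Without control 1 the counts were 20 lower and 0 higher, and without control 2 they were 23 lower and 1 higher. Of the 37 genes called, 19 kept their call in every alternative that gave them a value, among them all 3 with the largest falls in H1, H2A, H2B and H4 and both that fell in H3.

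**Figure D1:**
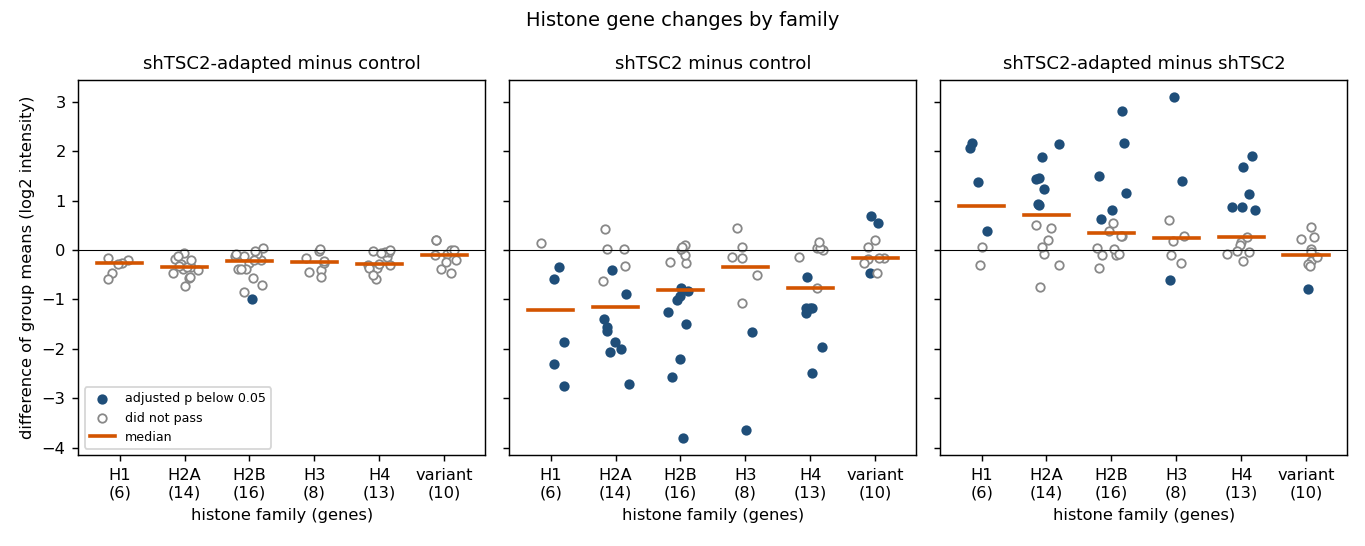
Change of each histone gene (points, filled where the limma adjusted p was below 0.05) by family, with the family median (line), as a difference of group means in log2 intensity on the vertical axis, for shTSC2-adapted minus control, shTSC2 minus control and shTSC2-adapted minus shTSC2. In shTSC2 minus control the family medians run from -1.22 in H1 to -0.34 in H3 and -0.16 in the variants.

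Calls were more frequent among genes that were bright on the array. Of 31 replication-dependent genes whose mean over all arrays was at or above 6.49, the median of all genes, 26 fell, and their median change was -1.40. Of all 9209 genes at that level, 22.52% fell. Of 11 between the lower quartile of 5.02 and the median, 4 fell, against 13.9% of genes at all levels. Of 15 below the lower quartile, 2 fell, against 1.41% of all genes that dim. Dim probe sets lie near background, where a change in RNA gives little change in intensity. For those of the 15 genes that did not pass, no fall is thus not a measurement of steady RNA. The mean includes the shTSC2 arrays, so a fall can itself move a gene to a lower level. H2AC8, among the 15 and lower in shTSC2, read 5.52 and 5.64 on control and 4.44 and 3.59 on shTSC2 arrays.

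Array by array, the genes were lower on the second array of both knockdown groups. Relative to the control mean, the median of the 57 genes was -0.13 and -0.46 on shTSC2-adapted arrays 1 and 2, -0.60 and -1.06 on shTSC2 arrays 1 and 2, and 0.01 and -0.01 on control arrays. Every knockdown array had a median below both control arrays, and both shTSC2 arrays lay below both shTSC2-adapted arrays. Between the arrays of a group, 45 of 57 genes were lower on array 2 in shTSC2-adapted, 47 of 57 in shTSC2 and 31 of 57 in control, with median differences of -0.26, -0.29 and -0.02. Over all genes the same medians were 0.02, -0.02 and 0.00. The labels do not say whether arrays with the same number share a batch or day, and the part of such a batch was not tested.

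**Figure D2:**
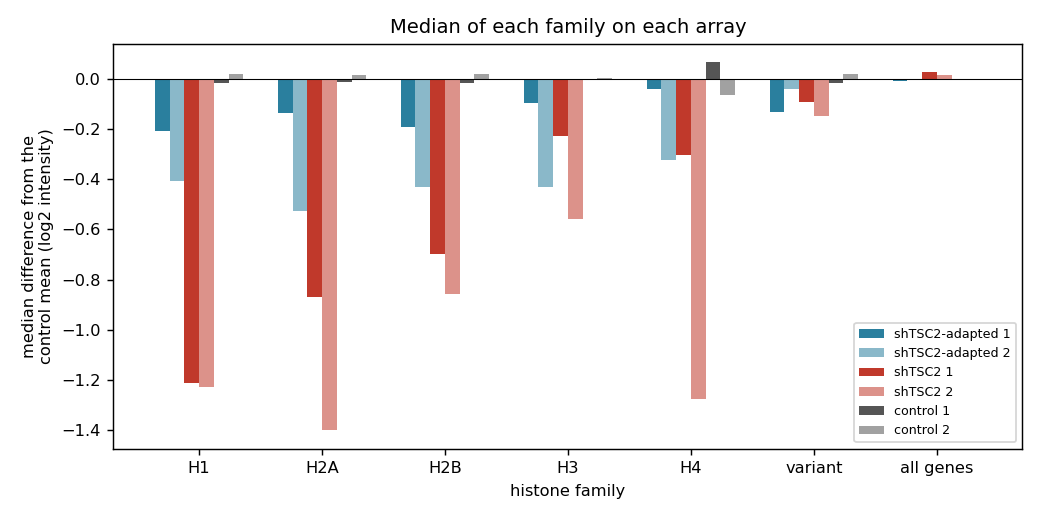
Median over the genes of each family of the difference from the control mean (vertical axis, log2 intensity) on each of the 6 arrays (bars), with all genes at the right. For the 57 replication-dependent genes together these medians are -0.13 and -0.46 on shTSC2-adapted, -0.60 and -1.06 on shTSC2, and 0.01 and -0.01 on control arrays.

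H1 linker histones compact nucleosome arrays, and the genes H1-1 to H1-5 supply dividing cells. H1-5 stood at 10.87 and 10.51 on shTSC2-adapted, 8.85 and 8.19 on shTSC2, and 11.21 and 11.34 on control arrays. The groups did not overlap, with shTSC2 lowest and shTSC2-adapted just under control. Its change in shTSC2 was -2.76 (SE 0.22, adjusted p = 0.000524). H1-4 read 12.09 and 11.58 on shTSC2-adapted, 10.12 and 9.43 on shTSC2, and 12.16 and 12.02 on control arrays (-2.32, SE 0.24, adjusted p = 0.00111 in limma for shTSC2). H1-2 read 8.27 and 7.83 on shTSC2-adapted, 6.76 and 6.57 on shTSC2, and 8.51 and 8.53 on control arrays (-1.86, SE 0.15, adjusted p = 0.000583 in limma for shTSC2). For both, the shTSC2 arrays lay clear below all others, and only for H1-4 did shTSC2-adapted and control overlap. H1-3 fell by less (-0.59, adjusted p = 0.00664), and did not pass without either control array. H1-6, the H1 of the testis, was dim at 4.57 and 4.52 on shTSC2-adapted, 4.55 and 4.40 on shTSC2, and 4.78 and 4.87 on control arrays, a change of -0.35 (adjusted p = 0.0462) that was lost with the replicate block, with only the compared arrays fitted, and without any 1 of 5 arrays (all but shTSC2 1). H1-1 was as dim, at 4.60 and 4.39 on shTSC2-adapted, 4.74 and 4.86 on shTSC2, and 4.63 and 4.68 on control arrays, and did not pass (0.15, adjusted p = 0.403).

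The promoter of H1-5, the H1 gene with the largest fall, is shown because histone families are known by the short motifs in front of their start. It spans chr6:27867539-27867838 on the minus strand of GRCh38.p14, from 250 bases before to 50 after the start in RefSeq, and is written 5′ to 3′ along the gene. Capitals here and in the promoters that follow mark the letters of the TATA box (TATAAA), the CCAAT box (CCAAT), the octamer (ATTTGCAT), the H1 box (AAACACA) and E2F sites (TTTCGCGC or TTTGGCGC) on either strand. H1-5 holds 2 H1 boxes, 226 and 117 bases before the start, and CCAAT on each strand, 53 and 66 bases before it.
H1-5: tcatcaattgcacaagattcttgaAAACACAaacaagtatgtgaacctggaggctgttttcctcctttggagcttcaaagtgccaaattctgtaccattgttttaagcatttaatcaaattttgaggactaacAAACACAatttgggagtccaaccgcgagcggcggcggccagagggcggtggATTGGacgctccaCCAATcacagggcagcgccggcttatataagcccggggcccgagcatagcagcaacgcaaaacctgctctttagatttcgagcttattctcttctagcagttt

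H2A is the core histone that pairs with H2B in a dimer. H2AC4 stood at 9.47 and 9.13 on shTSC2-adapted, 7.81 and 6.49 on shTSC2, and 9.95 and 9.77 on control arrays. The shTSC2 arrays were lowest and far apart from each other, and no groups overlapped. Its change in shTSC2 was -2.71 (SE 0.37, adjusted p = 0.00268). H2AC20 read 11.91 and 11.42 on shTSC2-adapted, 10.01 and 9.57 on shTSC2, and 11.85 and 11.88 on control arrays (-2.08, SE 0.19, adjusted p = 0.000771 in limma for shTSC2). H2AC6 read 7.63 and 6.80 on shTSC2-adapted, 5.85 and 5.69 on shTSC2, and 7.82 and 7.72 on control arrays (-2.0, SE 0.24, adjusted p = 0.0017 in limma for shTSC2). In both, the shTSC2 arrays were lowest, and for H2AC20 the shTSC2-adapted arrays fell on either side of control. H2AC21, H2AC15, H2AC8, H2AC13, H2AC16 and H2AC12 also fell, by -1.86 to -0.41, and of these H2AC8, H2AC16 and H2AC12 lost their call without either control array. H2AC12 also lost it without shTSC2 1 (adjusted p = 0.120 in limma), with the replicate block (0.0656) and with an intensity trend (0.0515). Of the 5 that did not pass, H2AC14 read 3.65 and 4.04 on shTSC2-adapted, 4.05 and 4.24 on shTSC2, and 4.10 and 4.17 on control arrays (0.01). H2AC1, an H2A of the testis, read 4.08 and 3.87 on shTSC2-adapted, 4.07 and 4.05 on shTSC2, and 4.06 and 4.03 on control arrays (0.02). Both are below the lower quartile of all genes, with overlapping shTSC2 and control arrays.

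The promoter of H2AC4 (chr6:26033569-26033868, minus strand, GRCh38.p14, RefSeq) is printed for the H2A gene with the largest fall. It has TATAAA 30 bases before the start, 4 CCAAT boxes, and the octamer on the other strand 118 bases before the start.
H2AC4: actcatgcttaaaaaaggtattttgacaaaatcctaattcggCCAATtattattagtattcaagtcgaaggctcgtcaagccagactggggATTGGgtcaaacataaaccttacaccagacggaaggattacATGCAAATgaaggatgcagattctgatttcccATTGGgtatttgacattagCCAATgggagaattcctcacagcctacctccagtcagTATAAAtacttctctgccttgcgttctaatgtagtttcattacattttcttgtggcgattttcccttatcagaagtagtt

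H2B held the largest fall of any gene tested in shTSC2. H2BC14 stood at 9.10 and 8.92 on shTSC2-adapted, 6.19 and 6.19 on shTSC2, and 10.09 and 9.91 on control arrays. The 3 groups were apart, with both shTSC2 arrays at the same low value. Its change in shTSC2 was -3.81 (SE 0.11, adjusted p = 3.54e-05). H2BC4 read 7.89 and 7.55 on shTSC2-adapted, 5.70 and 5.40 on shTSC2, and 8.07 and 8.16 on control arrays (-2.57, SE 0.15, adjusted p = 0.000256 in limma for shTSC2). H2BC7 read 6.49 and 6.27 on shTSC2-adapted, 5.01 and 4.76 on shTSC2, and 6.97 and 7.21 on control arrays (-2.21, SE 0.14, adjusted p = 0.000305 in limma for shTSC2). Both were ordered as H2BC14 was, with no overlap among the 3 groups. H2BC12, H2BC11, H2BC13, H2BC5, H2BC9 and H2BC8 fell by -1.49 to -0.77, and of these H2BC11 and H2BC8 lost their call without either control array, H2BC13 and H2BC9 without control 1, and H2BC5 without control 2. Among the 7 that did not pass, H2BC1, an H2B of the testis, read 3.65 and 3.89 on shTSC2-adapted, 3.69 and 4.06 on shTSC2, and 3.83 and 3.94 on control arrays (-0.01). H2BC26 read 5.23 and 5.30 on shTSC2-adapted, 5.49 and 5.25 on shTSC2, and 5.34 and 5.36 on control arrays (0.02). In these the shTSC2 and control arrays overlapped.

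The promoter of H2BC14 (chr6:27814772-27815071, plus strand, GRCh38.p14, RefSeq) is shown as that of the gene with the largest fall. It has the octamer 48 bases before the start, 5 CCAAT boxes, a sequence with the letters of an E2F site on the other strand 202 bases before the start, and TATAAA on the other strand 219 bases before it.
H2BC14: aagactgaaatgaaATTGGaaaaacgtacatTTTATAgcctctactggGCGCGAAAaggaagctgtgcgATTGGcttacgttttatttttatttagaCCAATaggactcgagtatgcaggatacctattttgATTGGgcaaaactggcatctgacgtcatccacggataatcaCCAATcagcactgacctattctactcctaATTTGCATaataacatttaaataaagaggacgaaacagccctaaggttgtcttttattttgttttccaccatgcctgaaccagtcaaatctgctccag

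Many H2A and H2B genes stand head to head and share 1 stretch of promoter. Of 11 such pairs with starts 194 to 248 bases apart, 9 had both genes on the array with probe sets of their own. Both partners fell in H2AC6 (-2.0) and H2BC4 (-2.57), in H2AC8 (-1.57) and H2BC8 (-0.77), and in H2AC13 (-1.40) and H2BC13 (-1.01). In 3 pairs 1 partner passed and the other did not: H2BC14 (-3.81) against H2AC14 (0.01, a dim probe set), H2AC20 (-2.08) against H2BC21 (-0.11, adjusted p = 0.878), and H2BC11 (-1.26) against H2AC11 (-0.63, adjusted p = 0.179). The difference between partners was not tested. Neither passed in the pairs of H2AC1 with H2BC1, H2AC17 with H2BC17, and H2AC25 with H2BC26. H2BC21 read 8.12 and 7.30 on shTSC2-adapted, 8.28 and 7.10 on shTSC2, and 7.85 and 7.75 on control arrays. Its arrays spread widely in both knockdown groups, on either side of control. A probe set shared by H2BC19P, H2BC20P and H2BC21 read 11.19 and 10.96 on shTSC2-adapted, 10.39 and 9.98 on shTSC2, and 11.47 and 11.41 on control arrays, a fall of -1.26 (adjusted p = 0.0133 in limma over every probe set). Another set, shared by H2BC18, H2BP1 and H2BC21, changed by -0.18 (adjusted p = 0.764 in the same limma fit). The change of the set of H2BC21 alone had a 95% interval of -1.01 to 0.79. Probe sets annotated to H2BC21 thus differed in their calls, the set that fell also carries other symbols, and the difference was not tested.

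**Figure D3:**
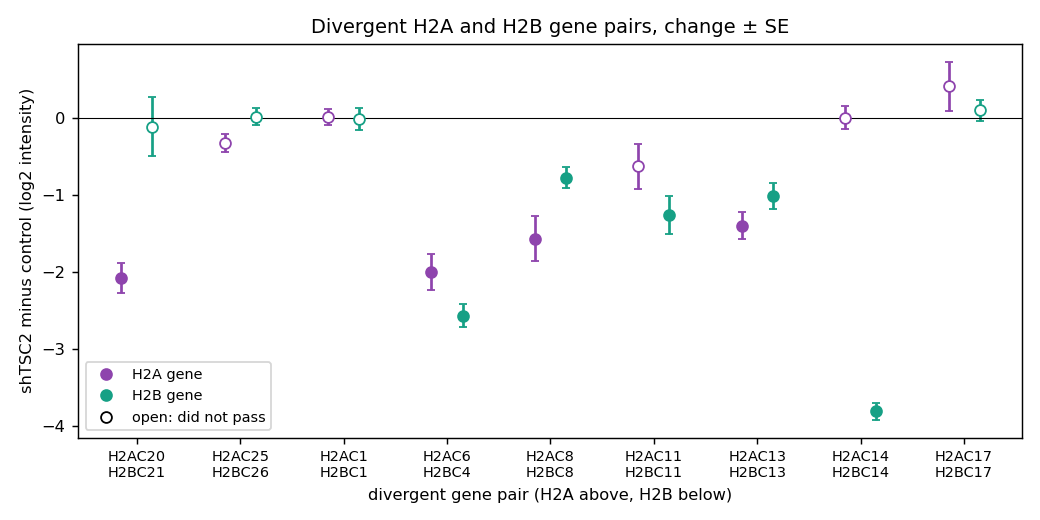
Change ± SE in shTSC2 minus control (vertical axis, log2 intensity) of the H2A and H2B gene of each head-to-head pair with both genes measured, filled where the limma adjusted p was below 0.05. Both fell in 3 of 9 pairs, and H2BC14 (-3.81) lies far from its partner H2AC14 (0.01), whose probe set is dim.

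H3, the core histone whose tail carries many of the studied chromatin marks, had 2 genes that fell, both by more than 2-fold. H3C11 stood at 11.12 and 10.28 on shTSC2-adapted, 8.11 and 7.09 on shTSC2, and 11.18 and 11.30 on control arrays. The shTSC2 arrays were far below the rest, and the second array was lower than the first in both knockdown groups. Its change in shTSC2 was -3.64 (SE 0.36, adjusted p = 0.000893). H3C2 read 10.87 and 10.60 on shTSC2-adapted, 9.58 and 9.09 on shTSC2, and 10.99 and 11.02 on control arrays (-1.67, SE 0.17, adjusted p = 0.00102 in limma for shTSC2). H3C1 (-1.07, adjusted p = 0.0584) and H3C8 (-0.51, adjusted p = 0.0773) did not pass, and their shTSC2 arrays lay below control. H3C12 was the highest of the family in change (0.44, adjusted p = 0.0595). The smallest changes were those of H3C3, at 5.20 and 5.16 on shTSC2-adapted, 5.21 and 5.34 on shTSC2, and 5.22 and 5.20 on control arrays (0.07), and of H3C10, at 8.18 and 7.53 on shTSC2-adapted, 8.50 and 7.74 on shTSC2, and 8.19 and 8.32 on control arrays (-0.14, 95% interval -0.78 to 0.51). H3C10 lay above the median level of all genes, and its array 2 was lower than array 1 in both knockdown groups. H3C13, H3C14 and H3C15, which share their probe sets, are described with the shared sets.

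The promoter of H3C2 (chr6:26032050-26032349, minus strand, GRCh38.p14, RefSeq) stands for the family, with TATAAA 32 bases and CCAAT 54 and 96 bases before the start.
H3C2: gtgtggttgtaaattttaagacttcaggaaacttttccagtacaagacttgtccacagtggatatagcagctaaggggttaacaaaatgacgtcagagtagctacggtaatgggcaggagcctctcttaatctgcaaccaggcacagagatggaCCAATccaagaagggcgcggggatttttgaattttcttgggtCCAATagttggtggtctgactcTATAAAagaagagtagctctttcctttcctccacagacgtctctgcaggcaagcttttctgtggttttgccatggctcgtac

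H4, the partner of H3 in the core of the nucleosome, had 7 genes that fell. H4C2 stood at 9.29 and 9.03 on shTSC2-adapted, 7.64 and 6.87 on shTSC2, and 9.78 and 9.72 on control arrays. The 3 groups did not overlap, and shTSC2 was lowest. Its change in shTSC2 was -2.50 (SE 0.23, adjusted p = 0.000759). H4C3 read 10.71 and 10.22 on shTSC2-adapted, 9.04 and 8.53 on shTSC2, and 10.83 and 10.67 on control arrays (-1.97, SE 0.21, adjusted p = 0.00116 in limma for shTSC2). H4C13 read 7.82 and 7.67 on shTSC2-adapted, 6.73 and 6.49 on shTSC2, and 7.95 and 7.84 on control arrays (-1.29, SE 0.12, adjusted p = 0.000759 in limma for shTSC2). In both, the shTSC2 mean lay more than 1 log2 unit below those of the other groups, with no overlap. H4C4 (-1.18), H4C14 and H4C15 (-1.18, identical values) and H4C1 (-0.55) also fell. A probe set shared by H4C14 and H4C15, described in a later section, rose instead (2.12, adjusted p = 0.038 in limma over every probe set). H4C1 lost its call with only the compared arrays fitted, with every probe set tested, with an intensity trend, and without any 1 of 5 arrays (all but shTSC2 1), and H4C14 and H4C15 lost theirs without control 1. H4C8 spread widely, at 7.51 and 7.09 on shTSC2-adapted, 7.93 and 6.16 on shTSC2, and 7.90 and 7.71 on control arrays, and did not pass (-0.76, adjusted p = 0.322). Its shTSC2 arrays lay on either side of control. The smallest changes belonged to dim genes: H4C6 read 4.61 and 4.64 on shTSC2-adapted, 4.71 and 4.60 on shTSC2, and 4.67 and 4.64 on control arrays, and H4C7 read 4.17 and 4.22, 4.27 and 4.19, and 4.2 and 4.18 in the same order of groups.

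The promoter of H4C2 (chr6:26027234-26027533, minus strand, GRCh38.p14, RefSeq) is given for comparison with the H2A, H2B and H3 promoters, which hold CCAAT where it has none. Its TATAAA letters start 31 and 223 bases before the start of the gene.
H4C2: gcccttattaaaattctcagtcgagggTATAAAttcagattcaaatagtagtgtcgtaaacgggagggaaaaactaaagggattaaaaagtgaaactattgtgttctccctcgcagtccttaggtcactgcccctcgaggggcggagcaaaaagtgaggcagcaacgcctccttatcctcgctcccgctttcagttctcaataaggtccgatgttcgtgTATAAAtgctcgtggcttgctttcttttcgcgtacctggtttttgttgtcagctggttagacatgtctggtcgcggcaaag

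The variants moved little, and in both directions. H2AJ, an H2A variant known to build up in senescent cells, stood at 6.42 and 6.32 on shTSC2-adapted, 7.44 and 6.90 on shTSC2, and 6.43 and 6.52 on control arrays. Both shTSC2 arrays were above all others, and shTSC2-adapted and control lay together. It rose in shTSC2 (0.70, SE 0.17, adjusted p = 0.0262). MACROH2A1, a variant with a large extra domain linked to silent chromatin, read 9.59 and 9.91 on shTSC2-adapted, 10.12 and 10.04 on shTSC2, and 9.54 and 9.54 on control arrays, and rose in shTSC2 (0.54, SE 0.12, adjusted p = 0.0201). H2AZ2, an H2A.Z found at promoters, read 9.98 and 10.12 on shTSC2-adapted, 9.75 and 9.92 on shTSC2, and 10.35 and 10.24 on control arrays, and fell (-0.46, SE 0.11, adjusted p = 0.0234). For H2AZ2 the shTSC2 arrays were lowest and control highest. Each of these 3 calls ended when 1 control array was left out. Without control 1 the adjusted p in limma was 0.161 for H2AJ, 0.126 for MACROH2A1 and 0.174 for H2AZ2. Without control 2 it was 0.126 for H2AJ, 0.133 for MACROH2A1 and 0.106 for H2AZ2. Without shTSC2 1, MACROH2A1 (0.0578) and H2AZ2 (0.0685) also did not pass.

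The other 7 variants did not pass in shTSC2. H2AZ1, the second H2A.Z gene, read 11.04 and 11.17 on shTSC2-adapted, 10.40 and 10.88 on shTSC2, and 11.12 and 11.08 on control arrays (-0.46, adjusted p = 0.0809). H2AX, which is phosphorylated at DNA breaks, read 8.09 and 8.14 on shTSC2-adapted, 8.51 and 8.27 on shTSC2, and 8.59 and 8.57 on control arrays (-0.19, adjusted p = 0.272). H3-3B, which encodes the replacement histone H3.3, read 9.70 and 9.62 on shTSC2-adapted, 9.66 and 9.75 on shTSC2, and 9.82 and 9.90 on control arrays (-0.16, adjusted p = 0.309). In these 3 genes the shTSC2 arrays lay below control without passing the test. MACROH2A2 read 8.70 and 8.91 on shTSC2-adapted, 8.69 and 8.40 on shTSC2, and 8.76 and 8.85 on control arrays (-0.26, adjusted p = 0.212). H1-10, a linker histone variant, read 7.59 and 7.41 on shTSC2-adapted, 7.74 and 7.71 on shTSC2, and 7.88 and 7.91 on control arrays (-0.17, adjusted p = 0.287). Both had shTSC2 arrays below control, by small amounts. H1-7, the linker histone of spermatids, read 6.41 and 6.71 on shTSC2-adapted, 6.75 and 6.65 on shTSC2, and 6.62 and 6.66 on control arrays (0.06). H1-8, that of oocytes, read 6.09 and 6.12 on shTSC2-adapted, 6.06 and 6.13 on shTSC2, and 5.84 and 5.95 on control arrays (0.20, adjusted p = 0.189). H3-3A has no probe set of its own here, and 4 probe sets shared by H3-3A and a pseudogene changed by -0.15 to -0.24 in shTSC2 (adjusted p = 0.401 to 0.481 in limma over every probe set).

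The promoter of H2AJ (chr12:14774155-14774454, plus strand, GRCh38.p14, RefSeq) is printed as that of a variant that rose. It holds 3 CCAAT boxes, 65, 79 and 145 bases before the start, and none of the other capitalised motifs.
H2AJ: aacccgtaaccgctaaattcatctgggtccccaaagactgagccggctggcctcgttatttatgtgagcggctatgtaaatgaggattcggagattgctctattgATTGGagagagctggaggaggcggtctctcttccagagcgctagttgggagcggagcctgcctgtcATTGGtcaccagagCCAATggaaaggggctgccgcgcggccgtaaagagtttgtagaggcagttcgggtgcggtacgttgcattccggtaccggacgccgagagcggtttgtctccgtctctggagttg

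**Figure D4:**
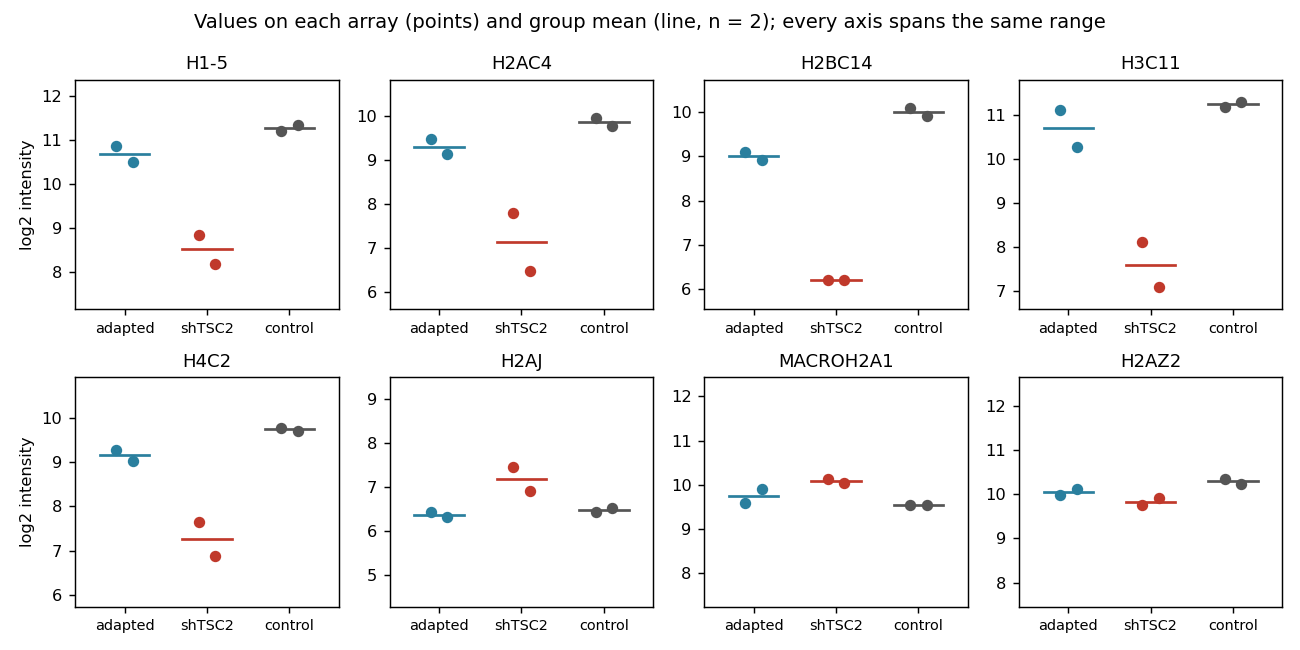
Log2 intensity on each array (points) and group mean (line, n = 2) of 5 replication-dependent histone genes and 3 variants, with shTSC2-adapted left, shTSC2 in the middle and control right. Every vertical axis spans the same number of log2 units. H2BC14 reads 9.10 and 8.92, 6.19 and 6.19, and 10.09 and 9.91 in these groups, and H2AJ reads 6.42 and 6.32, 7.44 and 6.90, and 6.43 and 6.52.

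The members that are no histone genes went their own way. The pseudogene H2BC19P read 6.43 and 6.06 on shTSC2-adapted, 7.60 and 6.96 on shTSC2, and 5.66 and 6.07 on control arrays, and rose in shTSC2 (1.42, SE 0.24, adjusted p = 0.00609; 0.06 without control 1). The shTSC2 arrays of this probe set were above all others. A brighter probe set shared by H2BC19P, H2BC20P and H2BC21, given with the head-to-head pairs, fell instead. It changed by -1.26 (adjusted p = 0.0133 in limma over every probe set), and the difference between the sets was not tested. The antisense RNA H1-10-AS1 rose by 0.47 (adjusted p = 0.0403), a call lost in 5 leave-one-out fits and 4 other settings. The pseudogene H1-9P did not pass (-0.07, adjusted p = 0.762).

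Another 24 probe sets carry 2 or more symbols, at least 1 of them from these families and any others H3P6, H2BP1 or FCGR1BP. Some join copies within a family, and others join unlike genes, such as H3C4 with H2AC7 or H2BC18 with FCGR1BP. Of the 24 sets, 21 are distinct in their values. They were left out of the gene counts above and were fitted with every probe set of the array. In shTSC2, 9 of the 21 fell and 1, that of H4C14 and H4C15, rose, against 6.55% and 3.47% of all 33297 probe sets. The 17 without H3-3A had a median change of -1.19. The probe set of H2BC12, H2BC12L, H2BC17 and H2BC5 read 10.97 and 10.91 on shTSC2-adapted, 9.28 and 9.03 on shTSC2, and 11.38 and 11.39 on control arrays, the largest fall of these sets (-2.23, adjusted p = 0.00538 in limma). The 3 distinct sets of H3C13, H3C14 and H3C15 fell by -0.86, -1.19 and -1.64 (adjusted p = 0.0332, 0.00895 and 0.0138 in limma). H2AC18 and H2AC19 were measured with H2AC20 and H2AC21 (-1.41, adjusted p = 0.0191 in limma), and H2AC7 with H3C4 (-1.95, adjusted p = 0.00736 in limma). In shTSC2-adapted against shTSC2, 5 of the 21 were higher and 0 lower, against 2.7% and 0.811% of all probe sets (10 higher and 2 lower at an unadjusted p below 0.05 in limma). Which gene of such a group changed cannot be read from these sets, and cross-hybridisation between near-identical copies also limits the sets with 1 symbol.

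The comparison of shTSC2-adapted with control asked how far the adapted cells stood from control cells. It uses the same control arrays as the comparison above, so their agreement in sign is no separate evidence. Of the 57 replication-dependent genes, 1 fell and 0 rose in limma, against 0.206% and 0.0543% of all genes. At an unadjusted p below 0.05 in limma, 15 were lower and 0 higher, against 1335 and 982 of all 18417 genes. The median change of the 57 was -0.29, against -0.01 over all genes, and 54 of 57 changes were below zero, against 9305 of 18417. Both shTSC2-adapted arrays lay below both control arrays for 35 of the 57 genes and above for 0, against 24.1% and 21.8% of all genes. The gene that fell was H2BC14 (-0.99, SE 0.11, adjusted p = 0.0287). Its call was lost with the replicate block (adjusted p = 0.0515) and without control 1 (0.444), control 2 (0.372), shTSC2-adapted 1 (0.178) or shTSC2-adapted 2 (0.114) in limma. The next largest differences, H2BC12 (-0.86, adjusted p = 0.068), H2AC15 (-0.73, 0.114) and H2BC7 (-0.71, 0.0922), did not pass. By family the medians ran from -0.34 in H2A to -0.23 in H2B, and the variants had -0.09, with 0 of 10 passed in limma (2 lower and 0 higher at an unadjusted p below 0.05). Without shTSC2-adapted 1 the median of the 57 was -0.46, and without shTSC2-adapted 2 it was -0.13.

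Set against shTSC2, 25 of the 57 replication-dependent genes were higher and 1 was lower in shTSC2-adapted cells, with a median difference of 0.39, against 9.25% higher and 3.24% lower over all genes. By family, 4 of 6 H1, 7 of 14 H2A, 6 of 16 H2B, 2 of 8 H3 and 6 of 13 H4 genes were higher. The largest differences were those of H3C11 (3.10, SE 0.36, adjusted p = 0.00345), H2BC14 (2.82, SE 0.11, adjusted p = 0.000322), H1-5 (2.17, SE 0.22, adjusted p = 0.00251), H2BC4 (2.17, SE 0.15, adjusted p = 0.00111), H2AC4 (2.15, SE 0.37, adjusted p = 0.0115) and H1-4 (2.06, SE 0.24, adjusted p = 0.00368), all from limma. H2AC4 did not pass without shTSC2-adapted 1 (1.98, adjusted p = 0.0821 in limma). In each of the 6, both shTSC2-adapted arrays stood above both shTSC2 arrays. This held for 32 of the 57 genes, with the reverse in 6, against 25.0% and 27.1% of all genes. Those lower in shTSC2-adapted were H3C12 (-0.61, adjusted p = 0.0282), H2AJ (-0.80, adjusted p = 0.0241) and H2BC19P (-1.04, adjusted p = 0.0309). H3C12 read 4.71 and 4.64 on shTSC2-adapted, 5.48 and 5.09 on shTSC2, and 4.83 and 4.86 on control arrays, with shTSC2 above the others. Without either control array or either shTSC2-adapted array, 0 of these 3 passed in limma. The median difference was 0.67 without shTSC2 1 and 0.22 without shTSC2 2. The count of higher genes was 14 without shTSC2-adapted 1 and 22 without shTSC2-adapted 2, and 14 of the 28 calls held in every alternative that gave a value. Of the 6 epithelial markers, CDH1 (1.54), EPCAM (1.65) and KRT19 (1.55) were also higher in this comparison. KRT7 (-0.255), KRT8 (-0.095) and KRT18 (0.055) did not pass, with 1 marker lower at an unadjusted p below 0.05 in limma. The summed intensities of the markers are given above, and the part of the markers in the result was not tested. This comparison shares its shTSC2 arrays with the comparison of shTSC2 with control.

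Genes that make, process and place histones moved in both directions in shTSC2. SLBP, which binds the stem-loop of replication-dependent histone mRNAs, read 9.06 and 9.27 on shTSC2-adapted, 9.02 and 9.22 on shTSC2, and 9.09 and 8.94 on control arrays. Its groups overlapped, and its change in shTSC2 was 0.11 (95% interval -0.18 to 0.39, adjusted p = 0.603). Of 19 genes of histone pre-mRNA processing and decay, 4 fell and 1 rose (21.05% and 5.26%, against 13.9% and 6.87% of all genes), with a median change of -0.01. CPSF3, the endonuclease that cuts the histone pre-mRNA, read 8.94 and 8.84 on shTSC2-adapted, 7.44 and 7.91 on shTSC2, and 8.99 and 8.80 on control arrays (-1.22, SE 0.16, adjusted p = 0.00242). Its shTSC2 arrays lay below all others. TUT4, which adds uridines to RNA ends, also fell (-0.93, adjusted p = 0.00363), and the third of the falls by size was MIF4GD (-0.82, adjusted p = 0.0208), an SLBP-binding protein. SNRPB, a protein of Sm cores, fell as well (-0.74, adjusted p = 0.00362), and CSTF2, a cleavage factor, rose (0.46, adjusted p = 0.0164). MIF4GD and CSTF2 did not pass without either control array, CSTF2 also not with median centring.

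Of 14 genes of the histone locus body and of histone gene transcription, 5 fell and 2 rose (35.71% and 14.29%, against 13.9% and 6.87% of all genes), with a median change of -0.05. NPAT, the coactivator of the locus body, did not pass (-0.37, adjusted p = 0.190), nor did CASP8AP2, its scaffold partner FLASH (0.43, adjusted p = 0.134). HINFP, the activator of H4 genes, read 7.83 and 7.53 on shTSC2-adapted, 7.36 and 6.85 on shTSC2, and 7.84 and 7.95 on control arrays, and fell (-0.79, SE 0.18, adjusted p = 0.0200). The call was lost without control 1 (0.0987) or control 2 (0.145). CCNE1, the cyclin whose kinase phosphorylates NPAT, read 7.39 and 7.87 on shTSC2-adapted, 9.36 and 9.14 on shTSC2, and 7.62 and 7.30 on control arrays, and rose (1.79, SE 0.18, adjusted p = 0.00102). E2F1 also rose (1.05, adjusted p = 0.00155), while CCNA2, a cyclin of S and G2 phase, fell (-1.09, adjusted p = 0.00162). The shTSC2 arrays were the highest for CCNE1 and the lowest for HINFP, and shTSC2-adapted overlapped control for CCNE1.

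Of 27 chaperones and deposition factors, 5 fell and 3 rose (18.52% and 11.11%, against 13.9% and 6.87% of all genes), with a median change of -0.09. ASF1A, a chaperone of H3 and H4, read 7.80 and 7.64 on shTSC2-adapted, 6.09 and 6.11 on shTSC2, and 7.89 and 7.90 on control arrays. Both shTSC2 arrays were far below the rest. It fell in shTSC2 (-1.80, SE 0.10, adjusted p = 0.000256), and shTSC2-adapted stood above shTSC2 (1.62, adjusted p = 0.00106). NASP, which protects the soluble pool of H3 and H4, fell (-0.81, adjusted p = 0.0125; it did not pass without control 1), and the importin IPO4 (0.73, adjusted p = 0.0396) and the H3 and H4 chaperone SPTY2D1 (0.68, adjusted p = 0.00491) rose. IPO4 was lost without either control array or shTSC2 2 and with the gene length trend removed, and SPTY2D1 without control 1.

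The list for DNA synthesis in S phase held 21 genes, SLBP of the processing list again among them. Of these, 0 fell and 4 rose in limma (3 lower and 5 higher at an unadjusted p below 0.05). The shares were 0.0% and 19.05%, against 13.9% and 6.87% of all genes, and the median change was 0.06. PCNA, the sliding clamp of replication, read 8.98 and 9.07 on shTSC2-adapted, 9.29 and 9.20 on shTSC2, and 9.26 and 9.11 on control arrays (0.06, adjusted p = 0.728). Its shTSC2 and control arrays overlapped. The largest rises were those of MCM7 (0.49, adjusted p = 0.0147), of the replicative helicase, and CDT1 (0.49, adjusted p = 0.0263), which loads it, and both were lost without either control array, CDT1 also without shTSC2 1, with median centring and with the gene length trend removed. Across the 80 genes of these lists 14 fell and 10 rose in shTSC2 (17.5% and 12.5%), a total of 24 that was 8 without control 1 and 10 without control 2. In shTSC2-adapted against control 0 of the 80 passed in limma, where 0.206% of all genes were lower and 0.0543% higher. At an unadjusted p below 0.05 in limma, 4 of the 80 were lower and 9 higher, against 1335 and 982 of all 18417 genes.

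**Figure D5:**
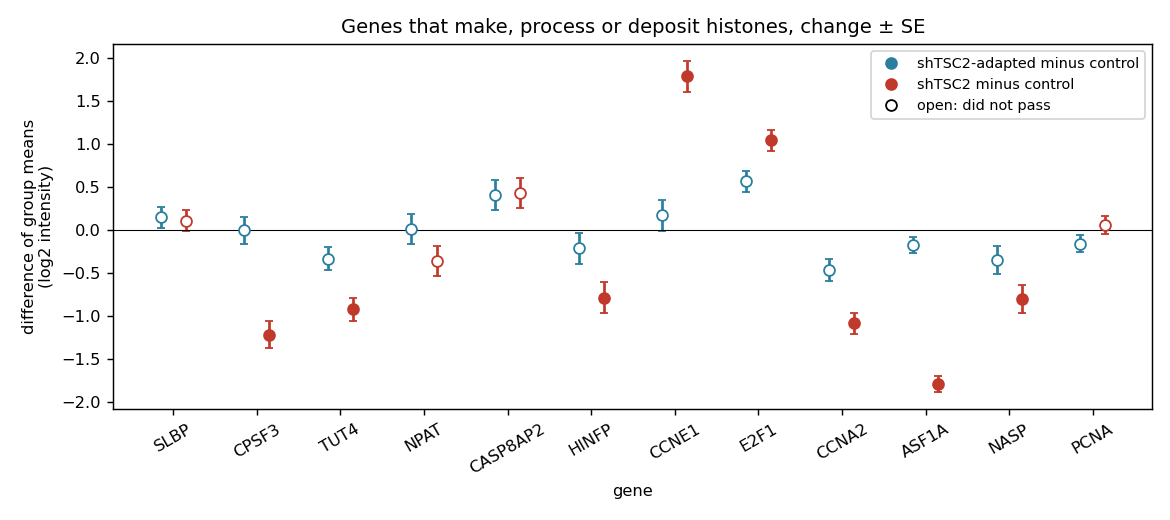
Change ± SE (vertical axis, difference of group means in log2 intensity) of 12 genes that make, process or deposit histones or replicate DNA, for shTSC2-adapted minus control and shTSC2 minus control, filled where the limma adjusted p was below 0.05. SLBP (0.11) and PCNA (0.06) lie near zero in shTSC2, CCNE1 (1.79) is highest and ASF1A (-1.80) lowest.

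Promoters of 62 of the 70 genes were found in the RefSeq table, with 300 bases each, and were searched on both strands. The motifs marked the families. The H1 box was in 6 of 6 H1 promoters, the octamer in 10 of 13 H2A and 13 of 16 H2B promoters and in 0 of the H1, H3 and H4 promoters, and CCAAT in all H1, H2A, H2B and H3 promoters but in 3 of 11 H4 promoters. The letters CGGAC, the core of the HINFP site, were in 10 of 11 H4 promoters. Over all 27305 promoters of the table, the H1 box was in 5.76%, the octamer in 1.80%, CCAAT in 35.7%, TATAAA in 11.95%, the E2F letters in 1.18% and CGGAC in 28.7%. Among replication-dependent genes, those that fell in shTSC2 and those that did not pass held the motifs as follows: TATAAA in 19 of 28 against 15 of 24, CCAAT in 24 of 28 against 20 of 24, the octamer in 13 of 28 against 10 of 24, E2F letters in 6 of 28 against 5 of 24, CGGAC in 7 of 28 against 8 of 24, and the H1 box in 6 of 28 against 1 of 24. These counts are descriptions, without a test. The windows of head-to-head partners share bases, so they are not independent, and a match is no measurement of binding.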

How the data were processed

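The deposited intensities, on a linear scale, were made by the authors with RMA, per the submitters' processing notes. Neither its version nor the probe definition is given in the sources used here. RMA equalises arrays and can so remove part of a change common to most genes. The log2 of each deposited intensity was used, which came within 6.99e-10 of 2 decimals throughout. Arrays have no read depth, and their number, 6, limits the precision.

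Of 33297 probe sets, 19460 had 1 symbol in the platform annotation, 1754 several and 12083 none. The probe set with the highest mean was kept for each of 18417 genes. 1 limma model (version 3.58.1, R 4.3.3; eBayes defaults, 3 residual degrees of freedom) covered all arrays and was first tested on simulated data. Tables and figures used Python 3.11.15, pandas 2.3.3 and matplotlib 3.10.9. Promoters came from RefSeq (GRCh38.p14), and head-to-head pairs are H2A and H2B genes with starts within 1000 bases.

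The members, the lists of supply and marker genes and the tests were chosen with earlier results of these data known. Array values were given for, per family, the 3 largest changes that passed in shTSC2 and the 2 smallest, for every variant, for genes that passed in shTSC2-adapted against control, and, with values or changes, for SLBP, NPAT, CASP8AP2, HINFP, CCNE1 and the 2 largest rises and falls of each supply list. TSC2, H2BC21, H4C8, H2BC19P, H3C12, PCNA, MIF4GD, SNRPB and the shared probe sets were added after their values were seen. Genes of the supply lists without a probe set matched by symbol, such as POU2F1, were not analysed here.

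Alternatives were median centring, quantile normalization, dim genes (below the median level) left out, every probe set with 1 symbol, only the arrays compared, an intensity trend, removal of a gene length trend, the replicate number as a block, and each array left out in turn. The fit of every probe set, for probe sets with several histone symbols, was chosen after seeing the data.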

Additional observations from a re-analysis of the deposited data

Results flagged for a closer look

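A probe set annotated to both H4C14 and H4C15, which is outside the gene counts above because it carries 2 symbols, stood apart from the other histone probe sets. It read 9.01 and 7.81 on shTSC2-adapted, 10.69 and 9.99 on shTSC2, and 8.18 and 8.26 on control arrays, a rise of 2.12 in shTSC2 (SE 0.42, adjusted p = 0.038 in limma over every probe set). A second probe set of the array has the same values. The probe sets annotated to H4C14 alone and to H4C15 alone read 10.16 and 9.60, 9.20 and 8.83, and 10.30 and 10.08 in the same order of groups, a fall of -1.18. Probe sets named for the same genes thus moved in opposite directions, and which part of the transcripts each detects was not tested.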

How the results depend on the processing

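No called result changed sign under these alternatives. In shTSC2 against control, the histone genes lower numbered 28 to 37 and the higher ones 2 to 5 in the settings that kept all compared arrays, with 2 higher when dim genes were left out. With dim genes left out, the median of the replication-dependent genes was -1.395 in shTSC2 against control and 0.925 in shTSC2-adapted against shTSC2. In shTSC2-adapted against control, the 1 histone gene lower became 2 with quantile normalization, 4 with median centring, 2 without dim genes, 3 with only the compared arrays and 0 with the replicate block, while all genes changed went to 94, 199, 121, 248 and 1 in these settings, from 48. In shTSC2-adapted against shTSC2, histone genes lower were 1 without dim genes and 0 with only the compared arrays, where all genes changed were 1113 (2300 before) and supply genes 6 (16 before). The causes were not tested beyond what the settings themselves change, fewer genes tested or fewer arrays.

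Leaving out 1 array at a time gave, for shTSC2 against control, 20 to 35 histone genes lower, 0 to 5 higher, 1175 to 3895 genes changed, medians of -1.055 to -0.60 and 8 to 26 supply genes. For shTSC2-adapted against control it gave 0 to 3 histone genes lower, 0 to 248 genes changed and medians of -0.455 to -0.13. For shTSC2-adapted against shTSC2 it gave 0 to 4 lower, 14 to 29 higher, 837 to 2600 genes changed, medians of 0.22 to 0.67 and 4 to 16 supply genes. Where a group is left with 1 array, that array is assumed to vary like the other groups.

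Arrays of different groups carry the same replicate numbers, which were not taken to pair them, since the labels name no shared source and not every pair's correlation was above 0. Deviations correlated at r = 0.21 between shTSC2-adapted and shTSC2, -0.19 between shTSC2-adapted and control, and -0.10 between shTSC2 and control, over 18417 genes. With the number as a block, 33 histone genes were lower and 4 higher in shTSC2 against control, 0 lower in shTSC2-adapted against control, and 3 lower and 24 higher in shTSC2-adapted against shTSC2. All genes changed were 3536, 1 and 2064 in these comparisons, and supply genes 24, 0 and 11. Low mean levels limit what can be seen of the 15 replication-dependent genes below the lower quartile, of which 2 fell in shTSC2.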
